A study of Mus musculus with 12 samples.

Results

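The unfolded protein response and the integrated stress response were followed through 35 genes. The genes were chosen by name, with earlier results of these data known. They were 14 chaperones and folding enzymes of the endoplasmic reticulum (ER), 4 genes of ER-associated degradation (ERAD), 4 sensor genes including Xbp1, the transcription factor gene Atf4, and 12 target genes of ATF4. All probe sets annotated with 1 of these symbols were taken, 81 of the 45101 on the array, and each gene was read from its brightest probe set. All 35 genes were measured, of 18193 genes with a probe set, and 34 of them passed the filter on dim probe sets (3 or more arrays with a signal over that array's median) and were tested. The remaining gene, Pdia4, is given by values alone. Of the 34, 30 were above the median on all 12 arrays. The stress regulator Trib3 was above it on the 6 SOD1 G93A arrays and on no NTg array, so it entered the test through the mice in which it was high.

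The RNA came from astrocytes laser-captured from the lumbar spinal cord of male mice, with 3 mice and 3 arrays in each of 4 groups. Non-transgenic (NTg) littermates, labelled wildtype, and SOD1 G93A mice were each taken at 90 days (the symptomatic stage) and at 120 days (late-stage). The transgene of the SOD1 G93A line is the mutant human gene of an inherited form of amyotrophic lateral sclerosis (ALS), carried on a C57Bl/6 background. It is not limited to astrocytes, so all cells around them bore it too, and the mouse probe sets used here do not check it. The astrocyte label was set beside 13 astrocyte marker genes. None of them was at or below the offset of 7 on all arrays of any group. Their summed signals were 30048 to 37590 (NTg) and 34599 to 41085 (SOD1 G93A) at 90 days. At 120 days they were 18531 to 22743 (NTg) and 20515 to 31488 (SOD1 G93A). Neuronal and oligodendrocyte markers met the same criterion in each group, so it shows that astrocyte markers were measured and not that the cells were astrocytes alone.

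When unfolded proteins collect in the ER, 3 membrane sensors are known to respond. ATF6 and IRE1 (gene Ern1, which splices the messenger of Xbp1) switch on genes for chaperones and for ERAD, the route that removes misfolded proteins. PERK (gene Eif2ak3) phosphorylates the translation factor eIF2alpha, which slows protein synthesis and favours translation of ATF4. Other kinases that respond to amino acid lack, double-stranded RNA or haem lack act on the same factor, so that ATF4 targets can be induced without the chaperone branches, and this common route is called the integrated stress response. Its targets include regulators of growth and cell death and enzymes of amino acid synthesis. Mutant SOD1 misfolds, and ER stress is known in motor neurons of these mice.

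The known control sequences of the chaperone and ATF4 branches are shown as a sequence feature of the 2 gene groups, read without expression values. Many genes of each group had no match. The ER stress response element (ERSE), bound by ATF6 with NF-Y, reads CCAAT, any 9 bases, then CCACG. The related ERSE-II reads ATTGG, any base, then CCACG. The composite element bound by ATF4 with C/EBP factors was searched as TGATGNAA and the XBP1 element as TGACGTGG, whose other strand can overlap the CCACG of an ERSE. Exact matches on both strands were sought in RefSeq windows (GRCm38.p6) from 250 bases before to 50 bases after each annotated start, which were found for 33 of the 35 genes. In the 7 stretches below, each written 5′ to 3′ along the gene's strand, capitals mark the match. Where the element lies on the other strand its reverse complement is in capitals.
Hspa5, ERSE: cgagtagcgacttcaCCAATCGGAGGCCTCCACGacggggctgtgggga
Pdia6, ERSE: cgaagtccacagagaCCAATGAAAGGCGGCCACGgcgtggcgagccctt
Dnajc3, ERSE: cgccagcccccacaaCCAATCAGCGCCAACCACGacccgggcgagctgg
Herpud1, ATF4 composite element then ERSE-II: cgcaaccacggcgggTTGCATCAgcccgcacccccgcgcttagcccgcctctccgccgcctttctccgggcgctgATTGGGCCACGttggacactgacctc
Nupr1, ATF4 composite element: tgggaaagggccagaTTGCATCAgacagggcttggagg
Chac1, ATF4 composite element: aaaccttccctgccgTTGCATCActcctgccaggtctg
Asns, ATF4 composite element: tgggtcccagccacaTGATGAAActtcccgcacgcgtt

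These stretches lie upstream of the annotated starts, at chr2:34772010-34772058 (plus strand) for Hspa5, chr12:17266476-17266524 (plus) for Pdia6, chr14:118937812-118937860 (plus) for Dnajc3, chr8:94386302-94386402 (plus) for Herpud1, chr7:126625558-126625595 (minus) for Nupr1, chr2:119351034-119351071 (plus) for Chac1 and chr6:7693210-7693247 (minus) for Asns. An ERSE was matched in 7 of the 13 chaperone genes with a window, in Syvn1 of the ERAD genes and in none of the 12 ATF4 targets, against 0.137% of all 27025 genes with a window. ERSE-II was matched in Herpud1 and Dnajb11, against 0.0444% of all genes. The ATF4 composite element was matched in 4 of the 12 ATF4 targets (Trib3, Nupr1, Chac1 and Asns) and in Herpud1, against 4.51% of all genes. The XBP1 element was matched in none of the 33, against 0.714% of all genes. A match is a run of letters and not a measured binding site, and a window without one says nothing on the factor.

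**Figure D1:**
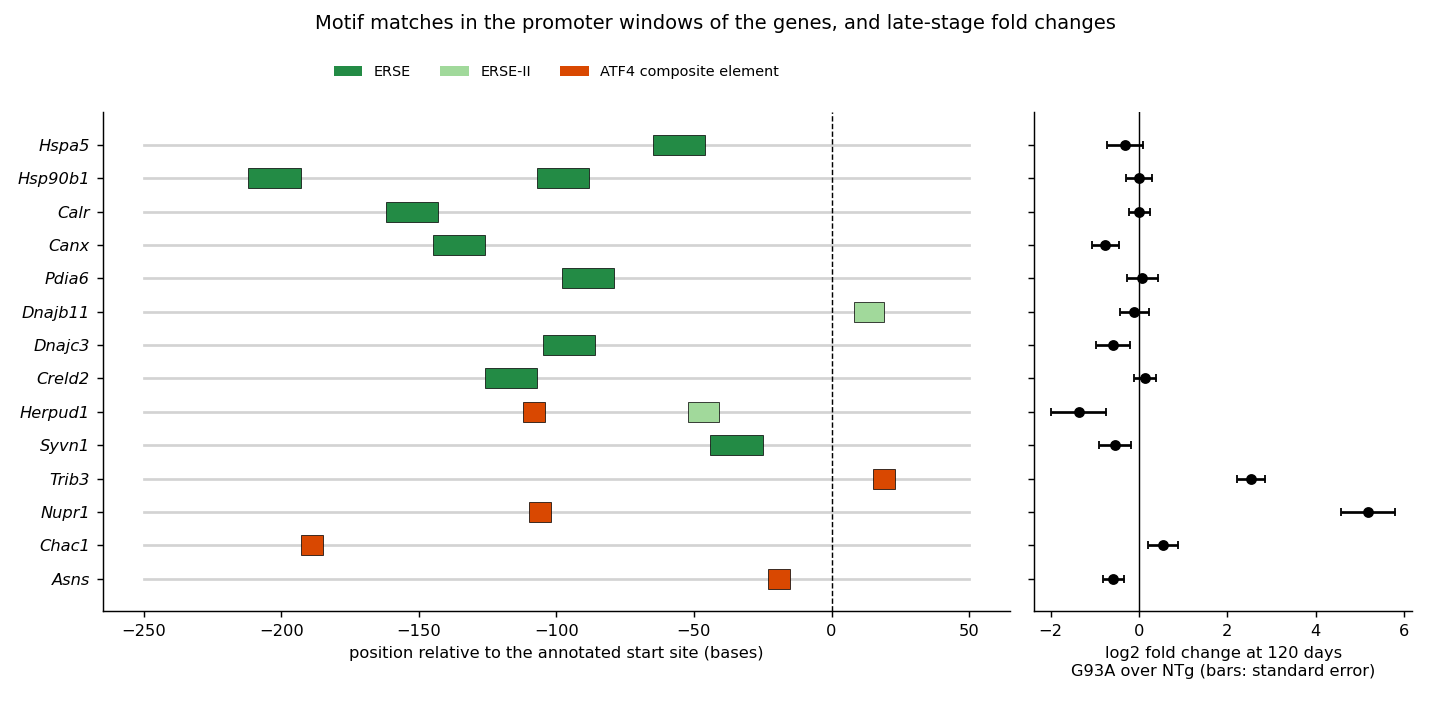
Position of each motif match along the promoter window of the 14 genes that hold one (left, bases relative to the annotated start) and the log2 fold change of those genes at 120 days with its standard error (right). Fold changes of the 8 genes with an ERSE lie between -0.76 and 0.15, and those of the 5 genes with an ATF4 composite element between -1.37 (Herpud1) and 5.18 (Nupr1).

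Signals were taken as log2 of the deposited signal plus 7, quantile-normalized within each age, and each level below is on that log2 scale. Fold changes are SOD1 G93A over NTg on the same scale, so they understate changes of dim probe sets. Adjusted p-values are from limma, after Benjamini and Hochberg over 26132 probe sets, and a gene was called at an adjusted p under 0.05. Nothing in the labels links mice of 1 group by litter or day. Median deposited signals were 24.9 to 37.1 in the first 3 groups and 38.8 to 55.2 in late-stage SOD1 G93A mice, and the late-stage SOD1 G93A arrays correlated less with each other (mean r 0.835 to 0.880) than arrays of the other groups did (0.914 to 0.952). Replicate 3 of late-stage SOD1 G93A stood furthest apart. The captured material was mixed: markers of neurons, oligodendrocytes and microglia were measured beside those of astrocytes, and their levels differed between groups. The summed signal of 15 of 16 microglial genes measured was 2286 to 2689 (NTg) and 12660 to 14025 (SOD1 G93A) at 120 days (3827 to 6333 and 10473 to 14521 at 90 days), with Trem2 in NTg mice at 120 days and Itgam in NTg mice at 90 days at or below the offset on every array. That of 10 of 12 leukocyte genes was 155 to 275 (NTg) and 2004 to 2956 (SOD1 G93A) at 120 days, and 142 to 367 and 750 to 1304 at 90 days. Of these 10, 4 passed the filter, and late-stage fold changes were positive in 8 and negative in 2. Cd3e was at or below the offset on every NTg array at 120 days. The summed signal of 16 neuronal genes was 24803 to 31883 (NTg) and 11342 to 18079 (SOD1 G93A) at 120 days, and 29919 to 34552 and 23052 to 27080 at 90 days. That of 9 of 10 oligodendrocyte genes was 24143 to 30492 (NTg) and 37584 to 49854 (SOD1 G93A) at 120 days, and overlapped at 90 days (30702 to 54966 and 36570 to 61887). The part of these markers in the results below was not tested. In captured tissue, fewer cells of a type and less RNA per cell cannot be told apart.

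At 120 days the ATF4 targets and the chaperones parted. Of the 35 genes, 6 rose and all 6 were ATF4 targets: Nupr1, Trib3, Ddit3, Phgdh, Atf5 and Shmt2. The 1 gene that fell was the chaperone gene Dnajb9. With arrays centred on their medians in place of quantiles, 3 rose (Nupr1, Trib3 and Ddit3) and 3 fell (Dnajb9, Asns and Canx). Under that centring 359 of all 12429 genes tested rose and 1624 fell. Nupr1 and Trib3 were called under all 25 alternative settings and Ddit3 under 24, whereas Phgdh was called under 15 and Atf5, Shmt2 and Dnajb9 under 12 each. With quantile normalization, 4.14% of all 12429 genes tested rose and 4.47% fell. The median log2 fold change was 0.88 over the 12 ATF4 targets and 0.04 over the 14 chaperones, beside -0.08 over all genes tested, and with median centring these were 0.51, -0.33 and -0.40, so the sign of the chaperone median depends on the scaling. By brightest probe sets, each SOD1 G93A array lay above each NTg array in 10 of the 12 targets and in none of the chaperones. The share over all genes tested was 15.3%. Since the genes were chosen with earlier results known, their counts beside the shares of all genes are a description and not a test. The reverse, each SOD1 G93A array below each NTg array, held for Asns, Dnajb9 and Dnajc3, against 20.4% of all genes. At 90 days no member was called, beside 0.185% of all genes tested that rose and 0.0402% that fell. An unadjusted p under 0.05 was found for 4 of the 34 members at 90 days (6.22% of all genes tested) and for 13 at 120 days (27.7%). At the threshold of the study's methods, a change of at least 2-fold with an unadjusted p of at most 0.05, 5 members rose and 2 fell at 120 days (5.56% and 7.68% of all genes tested) and 2 rose and 0 fell at 90 days (1.33% and 0.813%).

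**Figure D2:**
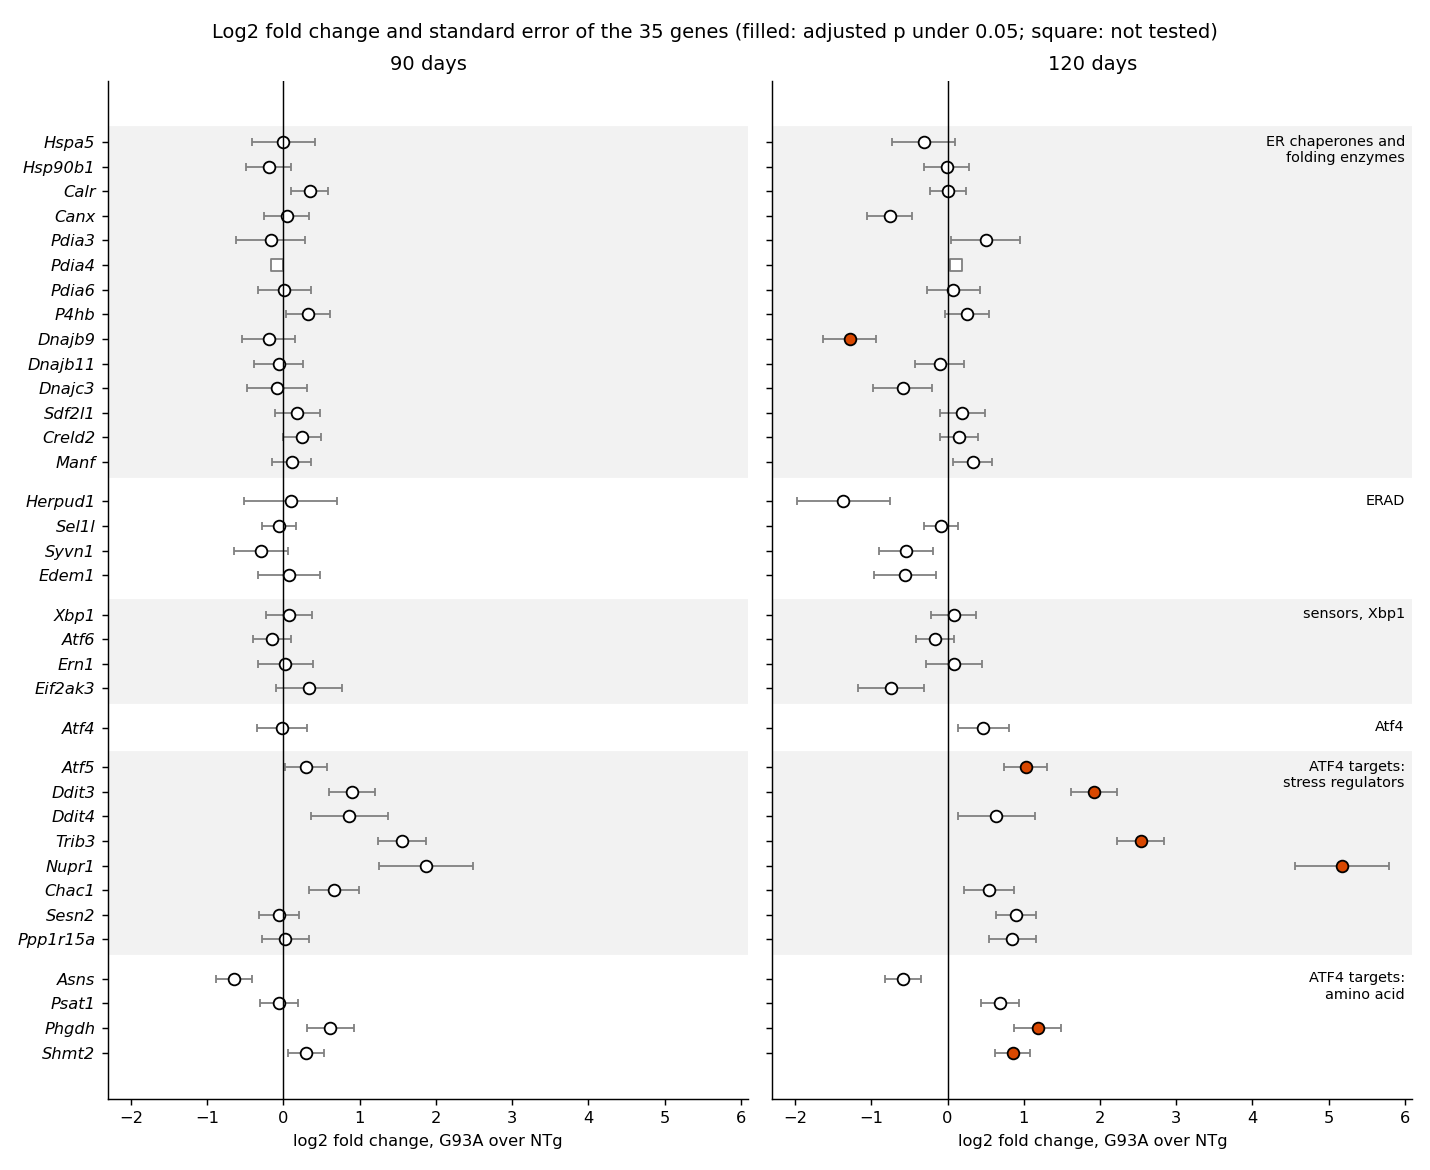
Log2 fold change, SOD1 G93A over NTg, of the 35 genes at 90 days (left) and 120 days (right), grouped by role, with standard errors from limma. Filled points are called genes, 6 up and 1 down at 120 days and none at 90 days, and the square is Pdia4, which was not tested.

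Group means of the 14 chaperones lay between 7.99 and 8.26 on the log2 scale, and those of the 12 ATF4 targets between 7.25 and 8.62. Chaperone means were 8.22 ± 0.22 on the NTg arrays and 8.26 ± 0.20 on the SOD1 G93A arrays at 90 days, and 8.10 ± 0.10 (NTg) and 7.99 ± 0.37 (SOD1 G93A) at 120 days (SD, n = 3 each). ATF4 target means were 7.25 ± 0.06 and 7.77 ± 0.11 at 90 days, and 7.31 ± 0.13 and 8.62 ± 0.15 at 120 days. At both ages the target mean of each SOD1 G93A array lay above that of each NTg array. Within each array the chaperone mean was then taken minus the target mean, a gap whose size depends on the probes and is read only between groups. It was 1.09, 1.18 and 0.66 on the NTg arrays and 0.27, 0.83 and 0.35 on the SOD1 G93A arrays at 90 days, where the groups overlapped. At 120 days it was 0.70, 0.95 and 0.70 on the NTg arrays and -0.30, -0.50 and -1.08 on the SOD1 G93A arrays, where they did not. The gap was lower on the SOD1 G93A arrays by a difference of -0.49 at 90 days and of -1.41 at 120 days, and without replicate 3 of late-stage SOD1 G93A the latter was -1.22. These values are a description, since the genes were chosen with results known.

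**Figure D3:**
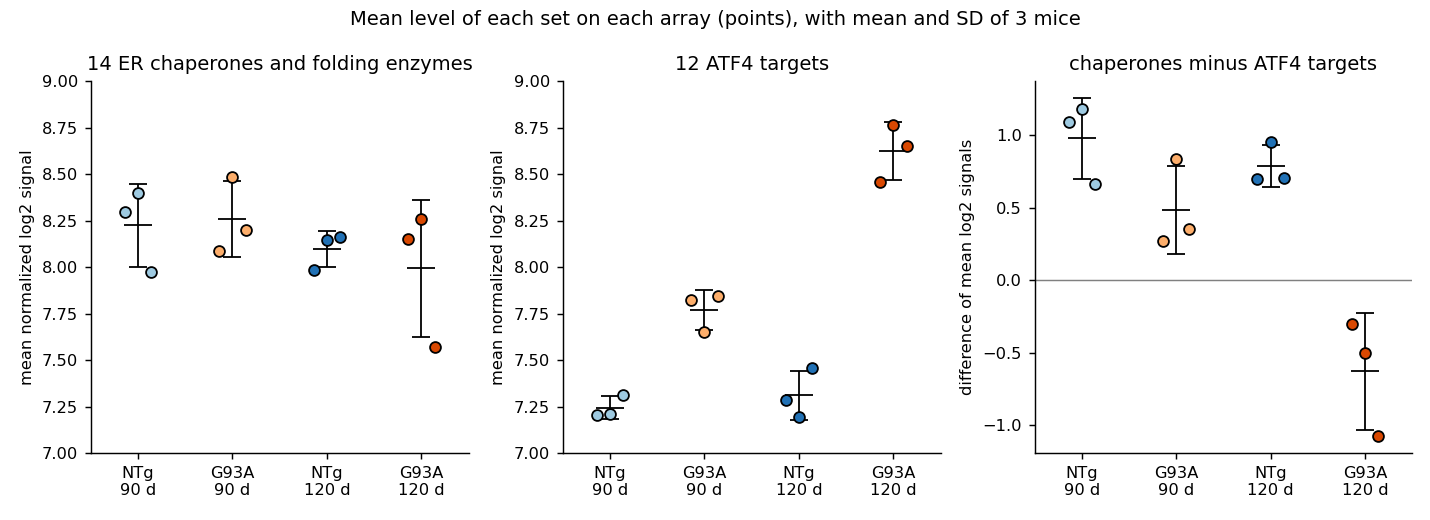
Mean normalized log2 signal of the 14 chaperones (left) and the 12 ATF4 targets (middle), and their difference (right), on each array, with mean and SD of 3 mice. The ATF4 target mean of late-stage SOD1 G93A arrays lies from 8.46 to 8.76, above the 7.19 to 7.46 of their NTg controls, and the chaperone means overlap. At 90 days the target means lie from 7.65 to 7.85 (SOD1 G93A) and from 7.21 to 7.32 (NTg).

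Among the chaperones, Hspa5 encodes BiP, the chief ER chaperone and the usual readout of ER stress. Its levels were 10.59, 10.91 and 9.82 on the NTg arrays and 10.11, 10.53 and 10.68 on the SOD1 G93A arrays at 90 days, with a fold change of -0.00 (SE 0.41). At 120 days they were 10.19, 10.50 and 10.59 on the NTg arrays and 10.33, 10.92 and 9.09 on the SOD1 G93A arrays. The groups overlapped at both ages, and the late-stage fold change was -0.32 (SE 0.41, adjusted p = 0.664 in limma). The low value was replicate 3, without which the fold change was 0.19. The other 2 probe sets of Hspa5 gave 0.23 and 0.91 at 120 days, also not called. In the one with 0.91 (adjusted p = 0.140 in limma) each SOD1 G93A array lay above each NTg array, so the probe sets of Hspa5 disagree. Hsp90b1 (GRP94, the ER member of the HSP90 family) had a fold change of -0.01 and Calr (calreticulin, a lectin chaperone) one of 0.01 at 120 days by their brightest probe sets. The second probe set of Hsp90b1 gave 0.88 (adjusted p = 0.0712) and the other 2 of Calr gave 0.26 and 0.16. In these 3 probe sets each SOD1 G93A array lay above each NTg array, and none was called.

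The exception among the chaperones was Dnajb9, which encodes the BiP co-chaperone ERdj4, a repressor of IRE1 signalling. At 120 days its levels were 9.13, 9.55 and 9.35 on the NTg arrays and 8.47, 8.57 and 7.15 on the SOD1 G93A arrays, so that each SOD1 G93A array lay below each NTg array. The log2 fold change was -1.28 (SE 0.35, adjusted p = 0.0405 in limma), a 2.43-fold lower level. Without replicate 3 of late-stage SOD1 G93A it was -0.83 with an adjusted p of 0.0889, no longer called. At 90 days the levels were 9.27, 9.30 and 8.69 on the NTg arrays and 8.86, 8.84 and 8.98 on the SOD1 G93A arrays, a fold change of -0.20.

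The remaining chaperones were not called at either age. Canx (calnexin, the membrane-bound partner of calreticulin) had a late-stage fold change of -0.76 (adjusted p = 0.130 in limma). Its other probe sets gave -0.93 (adjusted p = 0.0651), with each SOD1 G93A array below each NTg array, and 0.21. Dnajc3 (p58IPK, a co-chaperone of BiP) had -0.59 (adjusted p = 0.364 in limma). Its other tested probe sets gave 0.21 and 0.48, and the untested, dim ones -0.56 and -1.12, so its probe sets differ in sign. Among the disulfide isomerases, Pdia3 had a fold change of 0.50, P4hb one of 0.25, Pdia6 one of 0.08 and the untested Pdia4 one of 0.11 at 120 days. Dnajb11 and Sdf2l1, which act with BiP, had -0.10 and 0.20, and the secreted stress proteins Creld2 and Manf had 0.15 and 0.33. At 90 days the 14 fold changes ran from -0.20 to 0.34 with a median of 0.01, and 7 were positive and 7 negative.

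The 4 ERAD genes all had negative late-stage fold changes, from -1.37 to -0.08 with a median of -0.55, and none was called. Herpud1, which organizes the degradation complex and whose upstream stretch holds both elements, had levels of 7.78, 8.40 and 8.28 on the NTg arrays and of 7.51, 8.05 and 4.80 on the SOD1 G93A arrays. Its fold change was -1.37 (SE 0.61, adjusted p = 0.181 in limma), and -0.39 without replicate 3. The ubiquitin ligase gene Syvn1 (HRD1) had -0.54, its partner Sel1l -0.08 and the mannosidase-like gene Edem1 -0.55. Their mean difference was -0.64 with all arrays and -0.17 without replicate 3. A second probe set of Herpud1 gave -0.17, one of Edem1 0.96 and one of Syvn1 0.31, none of them called.

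The sensor genes were not called by their brightest probe sets. Xbp1, whose messenger is itself an ATF6 target, had levels of 9.05, 9.33 and 9.17 on the NTg arrays and of 9.55, 9.51 and 8.73 on the SOD1 G93A arrays at 120 days, a fold change of 0.08 (SE 0.30, adjusted p = 0.893 in limma). At 90 days its levels were 9.10, 9.0 and 8.94 on the NTg arrays and 8.85, 9.67 and 8.75 on the SOD1 G93A arrays, again with overlap. The other probe sets of Xbp1 gave -0.32, -0.23 and 0.43 at 120 days, none called, so they differ in sign. In the one with 0.43 each SOD1 G93A array lay above each NTg array. Splicing of Xbp1 was not measured. Ern1 had a late-stage fold change of 0.09, Eif2ak3 one of -0.74 (adjusted p = 0.299) and Atf6 one of -0.16. A second, dimmer probe set of Atf6 was lower at 120 days, with a fold change of -1.30 and an adjusted p of 0.00973 in limma, so the probe sets of that gene disagree in size.

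Atf4 itself, which is controlled largely at translation, was not called at either age. At 90 days its levels were 9.22, 9.28 and 10.23 on the NTg arrays and 10.15, 9.22 and 9.30 on the SOD1 G93A arrays, with a fold change of -0.02. At 120 days they were 10.81, 10.17 and 10.53 on the NTg arrays and 11.05, 11.06 and 10.81 on the SOD1 G93A arrays, and the groups met at their edges. The late-stage fold change was 0.47 (SE 0.33, adjusted p = 0.398 in limma), and the other tested probe set gave 0.57 (adjusted p = 0.190).

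**Figure D4:**
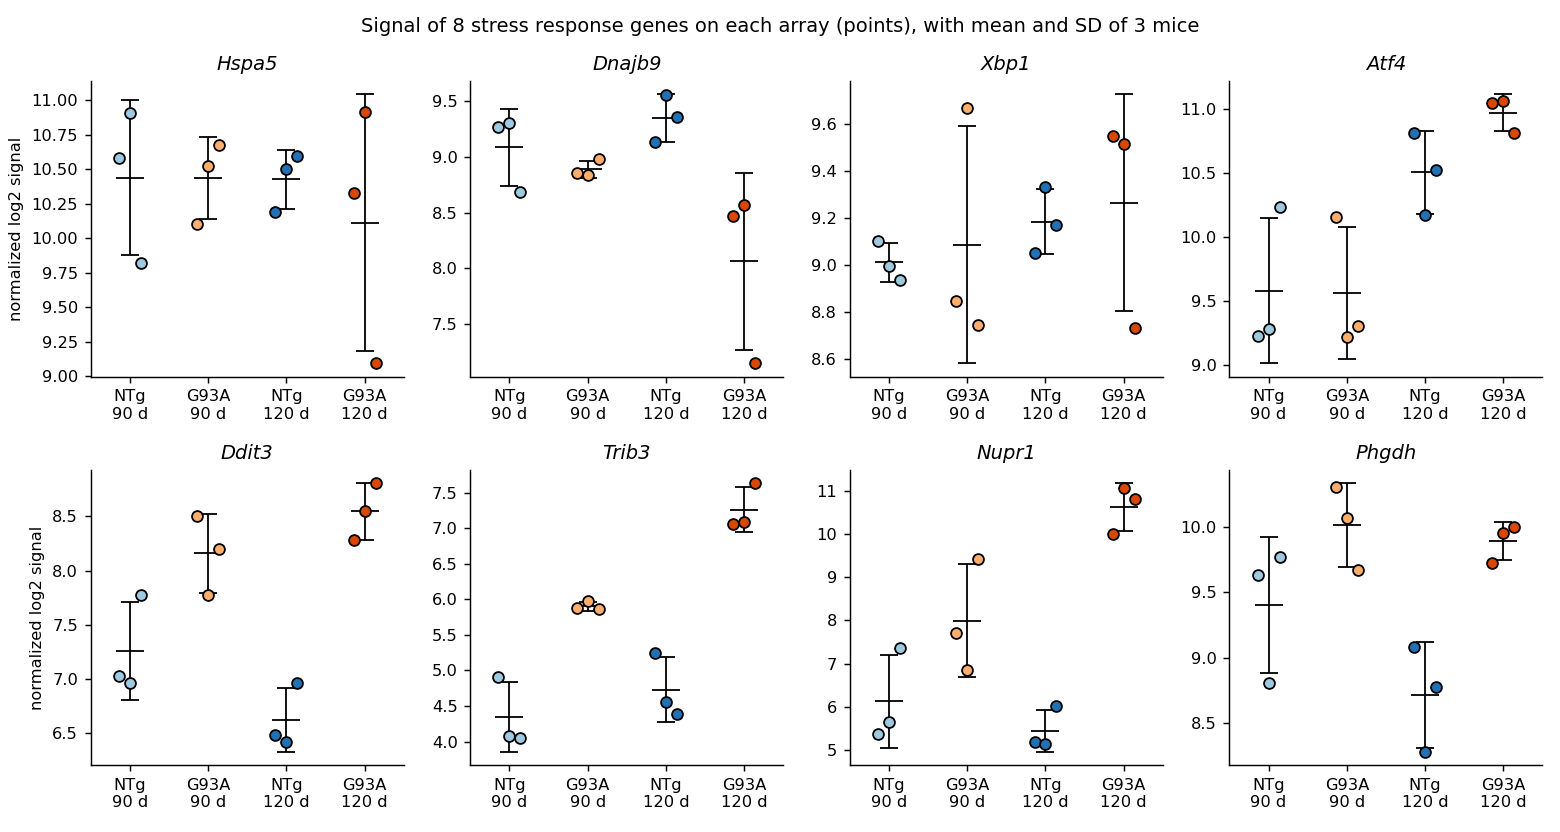
Normalized log2 signal of Hspa5, Dnajb9, Xbp1, Atf4, Ddit3, Trib3, Nupr1 and Phgdh on each of the 12 arrays, with mean and SD of 3 mice per group. The vertical axis differs between genes, and in Ddit3, Trib3, Nupr1 and Phgdh the late-stage SOD1 G93A arrays lie above the NTg arrays of the same age.

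The largest late-stage fold change of the 35 genes was that of Nupr1, a small stress-induced nuclear protein. Its levels at 120 days were 5.17, 5.15 and 6.01 on the NTg arrays and 10.01, 11.07 and 10.80 on the SOD1 G93A arrays, from deposited signals of 19.1 to 53.1 and of 1064 to 2108. The log2 fold change was 5.18 (SE 0.62, adjusted p = 0.000511 in limma), a 36.2-fold difference on the offset scale. At 90 days the levels were 5.36, 5.66 and 7.35 on the NTg arrays and 7.71, 6.86 and 9.42 on the SOD1 G93A arrays, with overlap and a fold change of 1.87 (SE 0.62, adjusted p = 0.571). Its second probe set gave 5.08 at 120 days and 1.85 at 90 days.

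Trib3 encodes a pseudokinase that restrains ATF4 and AKT signalling. Its levels were 4.91, 4.08 and 4.05 on the NTg arrays and 5.87, 5.97 and 5.86 on the SOD1 G93A arrays at 90 days, and 5.25, 4.56 and 4.38 on the NTg arrays and 7.06, 7.09 and 7.63 on the SOD1 G93A arrays at 120 days. The groups were apart at both ages. The fold change was 1.56 (SE 0.31, adjusted p = 0.0943 in limma, not called) at 90 days and 2.53 (SE 0.31, adjusted p = 0.000562) at 120 days. The second probe set gave 0.46 at 90 days and 1.39 at 120 days, the latter with an adjusted p of 0.0122. Chac1, an enzyme that breaks down glutathione, was the other target whose SOD1 G93A arrays all lay above the NTg arrays at 90 days, against 6.95% of all genes tested, with a fold change of 0.66 there and of 0.54 at 120 days, where the groups overlapped.

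Ddit3 encodes CHOP, a transcription factor linked to cell death under lasting ER stress. Its levels at 90 days were 7.03, 6.96 and 7.78 on the NTg arrays and 8.50, 7.77 and 8.20 on the SOD1 G93A arrays, which met at 7.77 and 7.78. At 120 days they were 6.49, 6.42 and 6.96 on the NTg arrays and 8.29, 8.55 and 8.81 on the SOD1 G93A arrays. The fold change was 0.90 (SE 0.30, adjusted p = 0.572 in limma) at 90 days and 1.92 (SE 0.30, adjusted p = 0.00293), a 3.80-fold difference, at 120 days. A second, dim probe set, not tested, gave -0.23 at 120 days, and the mean of both probe sets was not called (adjusted p = 0.0557). Atf5, a factor related to ATF4, had late-stage levels of 6.05, 6.23 and 6.01 on the NTg arrays and of 6.56, 7.29 and 7.53 on the SOD1 G93A arrays, a fold change of 1.03 (SE 0.28, adjusted p = 0.0424).

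The other regulators were not called at 120 days, although the SOD1 G93A arrays lay above the NTg arrays in each of the 3 named here. Sesn2 (sestrin 2, an inhibitor of mTORC1) had a fold change of 0.90 (adjusted p = 0.0537 in limma) by its brightest probe set and of -0.47 by the other. Ppp1r15a (GADD34), which brings phosphatase back to eIF2alpha, had 0.85 (adjusted p = 0.104). Ddit4 (REDD1, also an inhibitor of mTORC1) had 0.64 (adjusted p = 0.451). At 90 days these genes had fold changes of -0.06, 0.03 and 0.86.

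Of the 4 enzymes of amino acid synthesis, 2 rose at 120 days, and the fold changes of the 4 differed in sign. Phgdh, the first enzyme of serine synthesis and an astrocyte enzyme in the nervous system, had levels of 9.63, 8.81 and 9.77 on the NTg arrays and of 10.31, 10.07 and 9.67 on the SOD1 G93A arrays at 90 days. At 120 days they were 9.08, 8.28 and 8.77 on the NTg arrays and 9.73, 9.96 and 10.00 on the SOD1 G93A arrays, with a fold change of 1.18 (SE 0.31, adjusted p = 0.0366 in limma). Its other 3 probe sets gave 1.06, 1.11 and 0.64. Shmt2, the mitochondrial enzyme that turns serine into glycine and one-carbon units, had late-stage levels of 7.12, 7.10 and 7.29 on the NTg arrays and of 7.90, 8.17 and 8.0 on the SOD1 G93A arrays, a fold change of 0.85 (SE 0.23, adjusted p = 0.0423). Its other probe sets gave 0.38, 0.00 and, untested, -0.57, so the rise of Shmt2 rests on 1 of 4 probe sets. Psat1, the next enzyme of serine synthesis, had 0.69 (adjusted p = 0.104).

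Asns, asparagine synthetase and a standard ATF4 target with a composite element just upstream of its start, had lower levels in SOD1 G93A mice. Its levels were 8.69, 8.47 and 8.33 on the NTg arrays and 7.88, 7.92 and 7.75 on the SOD1 G93A arrays at 90 days, and 9.48, 9.93 and 9.71 on the NTg arrays and 9.34, 9.17 and 8.88 on the SOD1 G93A arrays at 120 days. At both ages each SOD1 G93A array lay below each NTg array, against 5.45% of all genes tested at 90 days, and the fold changes of -0.65 and -0.58 were not called (adjusted p = 0.669 and 0.137 in limma). The other probe set gave -0.17 and -0.47. The brightest probe sets of Trib3, Phgdh, Shmt2, Asns and Atf4 are of the x type, in which some probes can match other transcripts. All 4 probe sets of Phgdh are of this type.

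**Figure D5:**
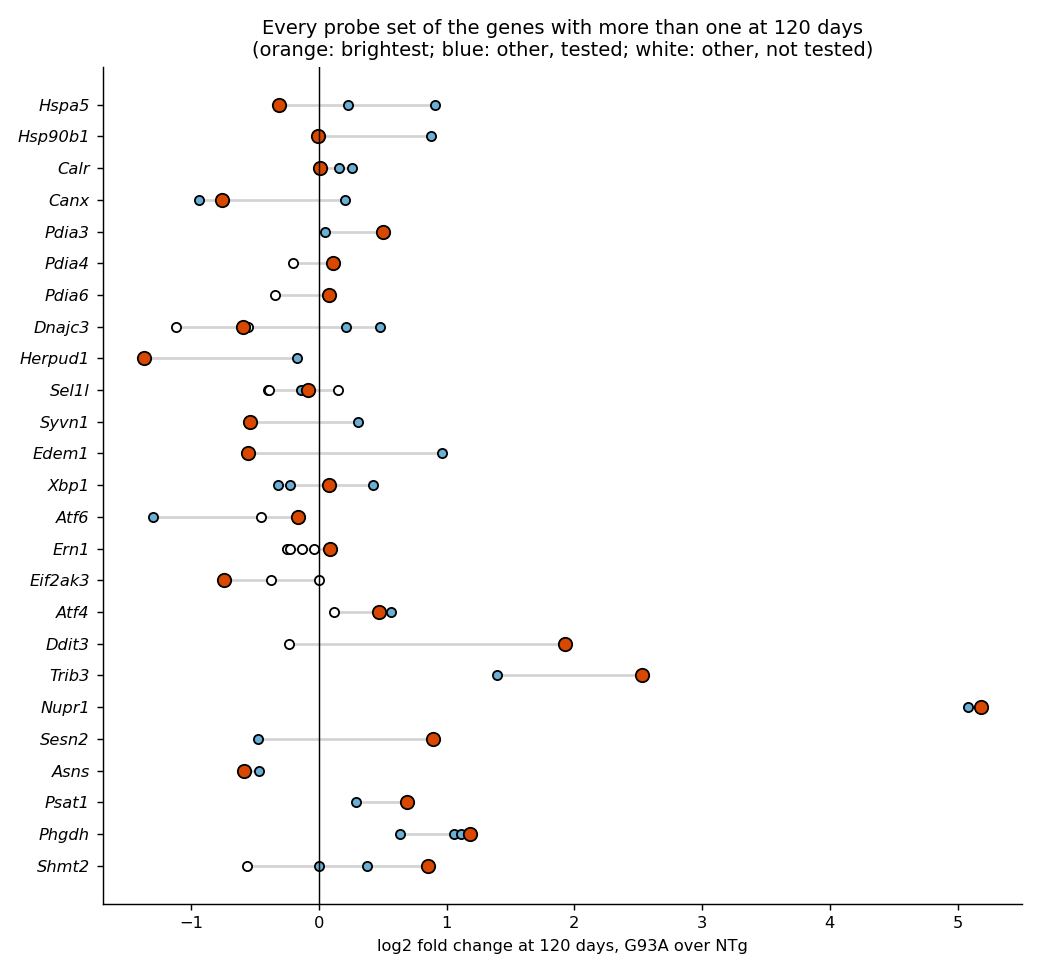
Late-stage log2 fold change of each probe set of the genes with more than 1, with the brightest in orange. Both probe sets of Nupr1 and of Trib3 and all 4 of Phgdh lie above 0, while those of Ddit3, Sesn2 and Shmt2 differ in sign or size. Probe sets of genes other than ATF4 targets, among them Hspa5, Dnajc3 and Edem1, also differ in sign.

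Whether the change in SOD1 G93A mice differed between the ages was tested directly, and no gene was called, among the 34 or among all 12429 (0% in each direction). For the difference, an unadjusted p under 0.05 was found for 5 of the 34 members, against 9.08% of all genes tested. The smallest was that of Nupr1, whose late-stage fold change exceeded the symptomatic one by 3.31 (SE 0.87, unadjusted p = 0.00209, adjusted p = 0.361 in limma). The others were Sesn2 (0.96), Ddit3 (1.02), Trib3 (0.98) and Dnajb9 (-1.09), with adjusted p-values from 0.495 to 0.529. At the threshold of the methods 2 members had a higher and 1 a lower late-stage fold change, against 2.81% and 3.83% of all genes tested.

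Wider lists of the same pathways were counted in the same fit. Of 30 further ATF4 target genes tested, 4 rose and 1 fell at 120 days, beside 4.14% and 4.47% of all genes tested. Eif4ebp1 (a brake on translation, fold change 3.35), Gadd45a (a growth arrest gene, 2.39), Atf3 (a stress transcription factor, 2.04) and Cebpb (the C/EBP partner of ATF4, 1.89) rose, with adjusted p-values from 0.000551 to 0.00308 in limma, and Vegfa (a vascular growth factor, -1.29, adjusted p = 0.0196) fell. The median over the 31 measured was 0.26. Atf3 also rose at 90 days, with a fold change of 2.14 (adjusted p = 0.00579), and was the 1 gene called in that list at that age. Of 18 cytosolic tRNA synthetase genes, another known class of ATF4 targets, none was called at 120 days, 1 had an unadjusted p under 0.05 (27.7% of all genes tested), and their median was -0.17.

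Genes of the ER itself were counted next. Of 31 other ER folding genes tested, Cnpy2 (1.14, adjusted p = 0.0156 in limma) and Dnajc1 (1.08, adjusted p = 0.0279) rose at 120 days, and the median over the 33 measured was 0.15. Of 20 genes of translocation into the ER tested, Sec61a1, the channel subunit, rose (1.10, adjusted p = 0.0336). Calls of 2 of 31 and 1 of 20 are near the 4.14% of all genes tested that rose. None of 20 other ERAD genes was called (4 with an unadjusted p under 0.05, median 0.02), nor any of 13 eIF2 kinase, subunit and phosphatase genes (3 with an unadjusted p under 0.05), of which the kinase gene Eif2ak2 (PKR) had a fold change of 1.21 (adjusted p = 0.0833). Both shares at an unadjusted p under 0.05 lie below the 27.7% of all genes tested. No gene of these lists other than Atf3 was called at 90 days.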

How the data were processed

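RNA of captured astrocytes and cells taken with them, from 12 mice, was amplified in 2 rounds and hybridized to Affymetrix Mouse Genome 430 2.0 arrays, 1 per mouse. The authors deposited linear signal intensities from MAS5 (version not given in the sources used here), with the mean of each array, trimmed by 2% at each end, at 100.001. Background and present calls were not used here. The labels describe toluidine blue staining where the methods describe ALDH1L1 staining, and the differential analysis of the methods used PLIER, which these values are not.

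Signals were taken as log2 after adding 7, the 20th percentile of all values, and quantile-normalized within each age (array medians spanned 0.83 at 120 days). After leaving out 64 control probe sets, 26132 above the median of their array on at least 3 arrays were tested in limma 3.58.1 (R 4.3.3) (4 groups, 8 residual degrees of freedom). Symbols came from the platform annotation (34945 probe sets with 1 symbol, 932 with several, 9160 with none). The array number, 3 per group, limits the precision. On simulated data of 26383 probe sets with the residual spread of these arrays, 5.15% of those changed by 1 and 71.4% of those changed by 2 on the log2 scale were called. The simulation changed far fewer probe sets than the 1948 called at 120 days. Its cut after Benjamini and Hochberg was therefore stricter, and these shares are not those of the late-stage comparison. Motifs came from RefSeq windows.

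The genes and lists were chosen with earlier results of these data known, and roles were assigned from textbook knowledge. Full statistics went to called members and to Hspa5, Xbp1, Atf4, Ddit3 and Phgdh, and from the wider lists up to 4 called genes per list and age were named. Vegfa is named beyond that rule as the 1 gene of its list that fell, and Asns, Herpud1 and Eif2ak2 were given in more detail after their values were seen. Alternatives covered normalization, offset, filter, samples, block, weights, prior, test, probe set choice, threshold and each array left out.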

Additional observations from a re-analysis of the deposited data

How the results depend on the processing

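Under all 25 alternatives with an adjusted p, the late-stage calls of Nupr1 and Trib3 held, and Ddit3 lost its call with the mean of its probe sets alone. The calls of Phgdh, Atf5, Shmt2 and Dnajb9 depend on the processing. Of the 35 genes, 6 rose and 1 fell at 120 days. With median centring in place of quantiles 3 rose and 3 fell, beside 359 and 1624 of all 12429 genes tested. Under median centring Asns (-1.15, adjusted p = 0.0364 in limma) and Canx (-1.22, adjusted p = 0.0440) joined Dnajb9. That scaling moved the median of all genes tested by -0.31, to -0.40, the chaperone median to -0.33 and the ATF4 target median to 0.51, which relative to all genes are 0.07 and 0.91 (0.12 and 0.96 with quantiles). The number that rose was 3 with no filter, with each age fitted alone and with the replicate block. The number that fell was 0 under these 3, with an offset of 1 and with the unmoderated test. Calls over all genes fell as well. Rises were 373 of 18193 with no filter, 252 of 12429 with each age alone and 321 with the block, against 514 in the main fit. Falls were 277, 153 and 263 under these 3, 418 with an offset of 1 and 355 with the unmoderated test, against 555. At 90 days 1 gene, Trib3, rose with the filter at the 75th percentile (adjusted p = 0.0365 in limma). Trib3 passes such a filter only through the SOD1 G93A arrays, in which it was high. With no filter its adjusted p at 90 days was 0.215 in limma, not called. At a 2-fold change and an unadjusted p of 0.05, 2 members rose at 90 days, 2 fell at 120 days, and for the difference between ages 2 were higher and 1 lower. With the mean of all probe sets the target median at 90 days was 0.30 and the change of the gap at 120 days -1.05.

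With each array left out in turn, 209 to 562 of all genes tested rose at 120 days and 61 to 764 fell. The target median at 90 days was 0.29 to 0.60. Of the members, 3 to 7 rose and 0 to 1 fell at 120 days. The 3 came without NTg replicate 1 at 90 days, without NTg replicate 2 or 3 at 120 days, or without SOD1 G93A replicate 2 or 3 at 120 days. Leaving out any 1 of these 5 ended the calls of Phgdh, Atf5 and Shmt2. Leaving out NTg replicate 1 at 120 days or SOD1 G93A replicate 2 at 90 days also ended those of Atf5 and Shmt2, NTg replicate 2 at 90 days that of Atf5, and SOD1 G93A replicate 3 at 90 days that of Shmt2. The fall of Dnajb9 was lost when any 1 of 8 arrays was left out: SOD1 G93A replicate 3 at 120 days, all 3 late-stage NTg arrays, NTg replicates 1 and 2 at 90 days and SOD1 G93A replicates 2 and 3 at 90 days. Replicate numbers did not pair the mice: deviations of same-numbered mice correlated from -0.28 to 0.28, and replicate 2 alone matched its own number best. Dim probe sets such as those of Trib3 in NTg mice lie near the offset and carry little precision. No called value changed sign under any of these alternatives.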
